A study of Drosophila melanogaster with 54 samples.

Results

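Sarcomere and muscle contraction genes were followed through 4 tables of read counts, 3 from embryos of Drosophila melanogaster and 1 from the S2 cell line, after RNA interference against the histone acetyltransferase gene mof. The set was given by name and holds 10 of the 17558 genes in each table: Mhc, Mlc2, Act57B, Act87E, Tm1, Tm2, up, wupA, sls and Zasp66. The rule uses their names and no measured value, although they were named with earlier results of these data known. Of these, up and wupA lie on the X chromosome and the other 8 genes on autosomes.

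The sarcomere is the contractile unit of muscle, in which thick filaments of myosin slide along thin filaments of actin. Tropomyosin and the troponin complex on the thin filament hold back the myosin heads until calcium enters, and the Z-disc anchors the thin filaments. In the fly embryo, body wall muscles form by fusion of myoblasts, and their structural genes switch on late, after the mesoderm has been patterned. MOF acetylates lysine 16 of histone H4, as part of the MSL complex on the single X chromosome of males, where it raises transcription towards the output of the paired X of females, and as part of the NSL complex at promoters in both sexes.

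The embryos were progeny of mothers that carried the maternal driver mat-a-tubGal4 (stock 7062) with either the mof RNAi line (stock 58281) or a control RNAi line (stock 36304), crossed to siblings. The mothers of all embryo groups, controls included, therefore had the driver and an RNAi construct. A maternal driver acts in the germline of the mother, so it is the supply of the egg that it targets first. At St5 (blastoderm, nuclear cycle 14) there were 4 mof male, 4 control male, 2 mof female and 2 control female libraries. At St7 there were 6 mof male, 7 control male, 4 mof female and 6 control female libraries. Each St5 and St7 library came from 1 embryo, whose sex was called from its own expression of sex-determination genes. At St15 (14 to 16 h) there were 3 mof male, 3 control male, 4 mof female and 3 control female libraries, each a pool of 25 embryos in a Sxl-GFP background, sorted by GFP for sex. S2 cells, an embryo-derived cell line, were treated for 3 days with dsRNA against mof or GFP (10 ug for 1000000 cells, 3 libraries each). The labels do not say whether the S2 libraries came from separate cultures, so their p-values measure the spread between these libraries, which may be technical.

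Depth was 28278799 to 41513416 counts per library at St5, 5504650 to 10024836 at St7, 19018190 to 38076982 at St15 and 20487339 to 38772186 in S2 cells. The mof transcript checked the labels: it stood at 0.912 to 4.51 CPM (counts per 1000000 counts of the library) in the mof libraries of St5, against 268 to 677 CPM in the controls, and at 2.17 to 3.23 CPM in the mof libraries of St15, against 10.97 to 38.7 CPM in the controls. At St7 it stood at 2.39 to 25.1 CPM in mof males, against 52.8 to 202 CPM in control males, and at 7.02 to 18.0 CPM in mof females, against 27.7 to 48.4 CPM in control females. In S2 cells the ranges overlapped (50.1 to 72.7 CPM with mof dsRNA, 65.9 to 71.8 CPM with GFP dsRNA), so the transcript did not check the S2 labels. The log2 ratio of X-linked to autosomal counts was -2.74, -2.7254 and -2.7355 with mof dsRNA, against -2.545, -2.4991 and -2.5449 with GFP dsRNA. St5 mof males 1 and 2 had 3 and 0 counts from Y-linked genes, where the other St5 males had 198 to 383, and St15 mof female 3 had 40, where the other St15 females had 1 to 4. At St5, mof female 2 had 52 and control female 1 had 40, where the other female of each group had 5 and 6. The genotype text of the St5 control females names the mof RNAi stock while their titles say control, and that of the St15 mof libraries says control while it names the mof stock; groups follow the titles.

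In the dm6 genome the thick filament genes were Mhc (chromosome arm 2L, 16766566 to 16788766, 9058 bases of exon) and Mlc2 (3R, 30171438 to 30174551, 2286 bases). The actin genes were Act57B (2R, 20944021 to 20946431, 1724 bases) and Act87E (3R, 13425983 to 13428375, 1989 bases). The tropomyosin genes Tm1 (3R, 15278220 to 15308779, 9804 bases) and Tm2 (3R, 15310193 to 15315197, 2613 bases) are neighbours on the same strand, 1413 bases apart. The X-linked troponin genes were up (X, 13593474 to 13602578, 2530 bases) and wupA (X, 18105568 to 18116922, 1978 bases). The Z-disc genes were sls (3L, 2039681 to 2115611, 58996 bases) and Zasp66 (3L, 8624371 to 8638813, 2812 bases). The wupA row was identified by position, because 3 tables carry an older gene ID that the reference names do not hold, while the St5 table, whose rows run in the same order, names it wupA. Exons on the opposite strand overlap those of Act87E, Tm1 and sls, and a small nucleolar RNA lies within the exons of Act57B. The libraries were made with a stranded kit but whether counting used the strand is not given, and reads shared between near-identical actin genes could be split in counting, so these levels are less certain than the rest.

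Of the 10 genes, all but Tm1 were silent or close to it at St5 and all but Tm1 and Act87E at St7, and at St15 the whole set was expressed. The 10 genes together took 2.53% to 3.70% of all counts at St15, against 0.107% to 0.148% at St7, 0.0556% to 0.0891% at St5 and 0.0348% to 0.0401% in S2 cells. The tables hold different stages, kinds of sample and depths, so these levels are a description with no test. In the bulk samples, fewer muscle cells and less RNA per muscle cell cannot be told apart.

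Mhc, the motor protein of the thick filament, had a median of 0.0381 CPM over the 12 St5 libraries, 0.474 CPM over the 23 St7 libraries, 7496 CPM over the 13 St15 libraries and 0.596 CPM over the 6 S2 libraries. Mlc2, the regulatory light chain of myosin, had medians of 0.160, 0.985, 3789 and 2.16 CPM in the same order of tables. Tm2, a muscle tropomyosin, had no count in 11 of 12 St5 libraries and in 19 of 23 St7 libraries, while St15 libraries held 1113 to 1663 CPM. The troponin T gene up had medians of 0.319, 0.523, 2560.4 and 0.615 CPM at St5, St7, St15 and in S2 cells, and the troponin I gene wupA had medians of 0.0437, 0.111, 1381 and 0.0477 CPM. Both X-linked genes thus followed the same course as the autosomal Mhc and Mlc2.

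Tm1, a tropomyosin gene whose products also serve the cytoskeleton of non-muscle cells, departed from that pattern. Its median was 726 CPM at St5 (555 to 888), 1142 CPM at St7 (995 to 1386), 1591 CPM at St15 (1393 to 1861) and 341 CPM in S2 cells (317 to 367). Act87E, an actin gene of muscle, was the only other gene of the set above 10 CPM at St7: its median was 0.175 CPM at St5 (0 to 0.849), 90.3 CPM at St7 (48.7 to 154) and 780.5 CPM at St15 (454 to 1254), and it was near 0 in S2 cells (median 0.0451 CPM). The titin-like Z-disc gene sls was detected in all S2 libraries at 27.6 to 31.7 CPM (565 to 1167 counts), while its St7 median was 1.69 CPM and its St15 median 1324 CPM. Zasp66, which codes for a PDZ-domain protein of the Z-disc, was the lowest at St15, with a median of 65.8 CPM (28.9 to 150).

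**Figure D1:**
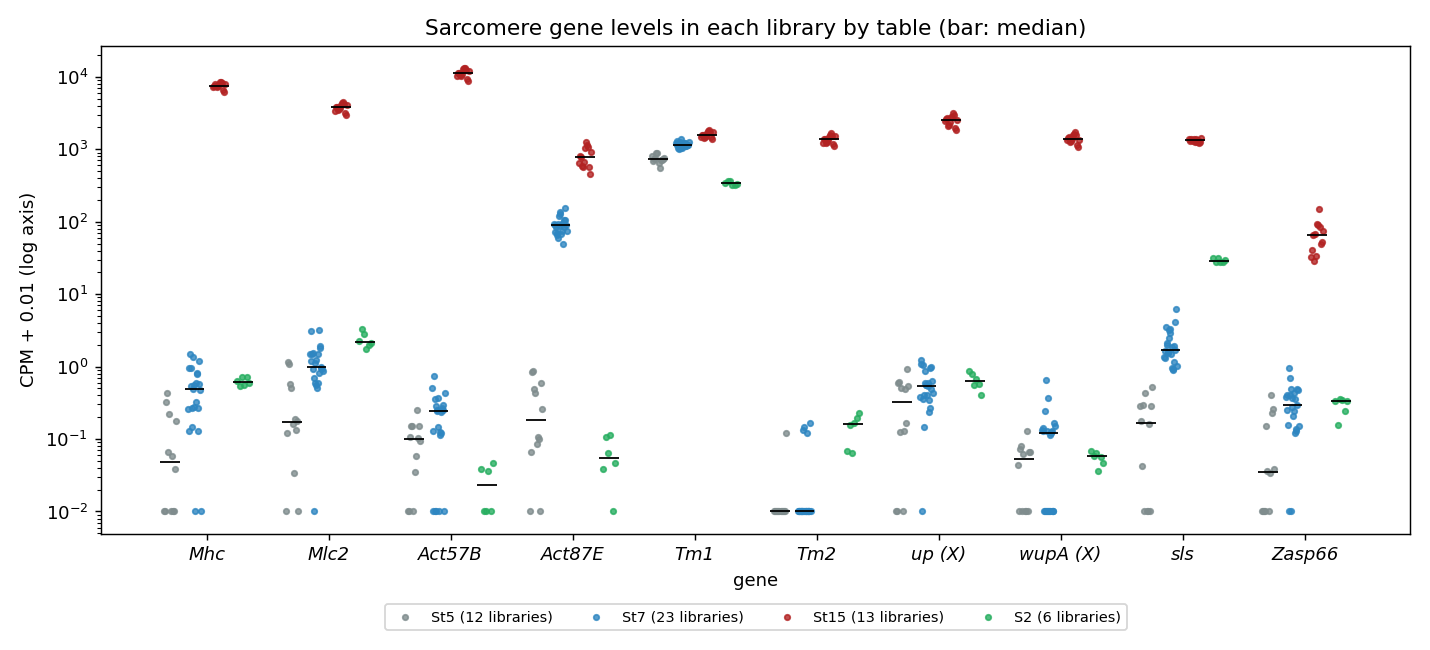
Level of each of the 10 sarcomere genes in each library (points; CPM plus 0.01, log axis), by table, with the median as a bar. Tm1 is high in all 4 tables and Act87E is high from St7 on, with a St7 median of 90.3 CPM, while the other 8 genes are high at St15, and sls stands apart from those in S2 cells at 27.6 to 31.7 CPM.

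The actin genes exchanged places between the stages. Act5C and Act42A, the cytoplasmic actins, held 88.6% and 11.4% of the counts of the 6 actin genes at St5 and 79.8% and 18.6% at St7, where Act87E held 1.56% (medians over libraries). At St15 Act57B held 77.5%, Act5C 13.96%, Act87E 5.31% and Act42A 3.42%. In S2 cells Act5C held 57.9% and Act42A 42.0%.

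Per kilobase of exon, the St15 levels ran from Act57B (median 6515 CPM per kb) through Mlc2 (1657), up (1012), Mhc (828), wupA (698), Tm2 (529), Act87E (392) and Tm1 (162) to Zasp66 (23.4) and sls (22.4 CPM per kb). Neighbours in this order overlapped in their ranges over libraries from up through Mhc, wupA and Tm2 to Act87E, and again between Zasp66 and sls, while the exon sum of sls covers all of its isoforms and so understates the level of any shorter one. At St7 the order began with Tm1 (117 CPM per kb) and Act87E (45.4 CPM per kb).

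In St15 females, 7 of the 10 genes rose in mof RNAi embryos relative to controls and none fell (edgeR's quasi-likelihood test, adjusted p under 0.05), where 26% of the 10684 genes tested passed in either direction. The median log2 fold change was 0.27 over the 10 genes and 0.022 over all genes tested. Zasp66 and Act87E moved most, and the other 5 genes that passed rose by log2 fold changes of 0.25 to 0.29. In CPM, 9 of the 10 genes lay higher in each mof female library than in any control female library, an arrangement seen in 15.1% of all genes tested.

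Of the thick filament genes, Mlc2 stood at 4098, 4302, 4442 and 4184 CPM in the 4 mof females, against 3373, 3844 and 3789 CPM in the 3 control females. The groups did not overlap, and Mlc2 rose by a log2 fold change of 0.28 ± 0.096 (SE; edgeR's quasi-likelihood test, adjusted p = 0.0492). Mhc stood at 7974, 8387, 8515 and 8235 CPM in mof females, against 7135, 7496 and 7927 CPM in control females. Its groups also lay apart, but its log2 fold change of 0.20 ± 0.080 did not pass (edgeR adjusted p = 0.0802).

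Of the actins, Act57B stood at 12632, 13187, 13101 and 12384 CPM in mof females, against 10239, 11232 and 11387 CPM in control females, and rose by 0.29 ± 0.095 on the log2 scale (edgeR adjusted p = 0.0402). Act87E stood at 1028, 1254, 1154 and 1086 CPM in mof females, against 638, 812 and 780.5 CPM in control females. That is a log2 fold change of 0.67 ± 0.21 (edgeR adjusted p = 0.0365) and a larger value than that of Act57B, although the difference between the actins was not tested.

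Both tropomyosins rose. Tm1 stood at 1702, 1791, 1861 and 1736 CPM in mof females, against 1455, 1591 and 1595 CPM in control females, and rose by 0.26 ± 0.073 (log2; edgeR adjusted p = 0.0213). Tm2 stood at 1494, 1577, 1663 and 1518 CPM in mof females, against 1211, 1384 and 1392 CPM in control females, and rose by 0.29 ± 0.10 (edgeR adjusted p = 0.0474). Of the X-linked troponins, wupA stood at 1584, 1605, 1740.2 and 1557 CPM in mof females, against 1337, 1437 and 1490.4 CPM in control females, and rose by 0.25 ± 0.079 (edgeR adjusted p = 0.0336). The gene up stood at 2755, 2819, 3149.8 and 2956 CPM in mof females, against 2417, 2591 and 2699.7 CPM in control females. Its groups lay apart, with a log2 fold change of 0.24 ± 0.10 that did not pass (edgeR adjusted p = 0.0891).

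The Z-disc genes behaved differently from each other. Zasp66 stood at 93.3, 90.0, 149.8 and 83.2 CPM in mof females, against 32.2, 40.4 and 65.8 CPM in control females, and rose by 1.23 ± 0.36 (log2; edgeR adjusted p = 0.0304). The highest value was that of mof female 3, and without that library the log2 fold change was 1.01 (edgeR adjusted p = 0.0689). It did not pass without control female 2 (1.03, edgeR adjusted p = 0.117) or control female 3 (1.15, edgeR adjusted p = 0.0965) either. The gene sls stood at 1246, 1372, 1273 and 1354 CPM in mof females, against 1377, 1290.2 and 1378 CPM in control females, with overlapping groups and a log2 fold change of 0.020 ± 0.069 (edgeR adjusted p = 0.857).

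The female calls sat close to the threshold and rested on single libraries. Leaving out any 1 of the 7 female libraries left 0 to 4 genes past it: 0 without control female 2, 0 without mof female 3 (the library with 40 Y-linked counts), 1 without control female 3, 1 without mof female 2, 3 without control female 4, 3 without mof female 4 and 4 without mof female 1. No gene that passed changed its sign in any of these fits.

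**Figure D2:**
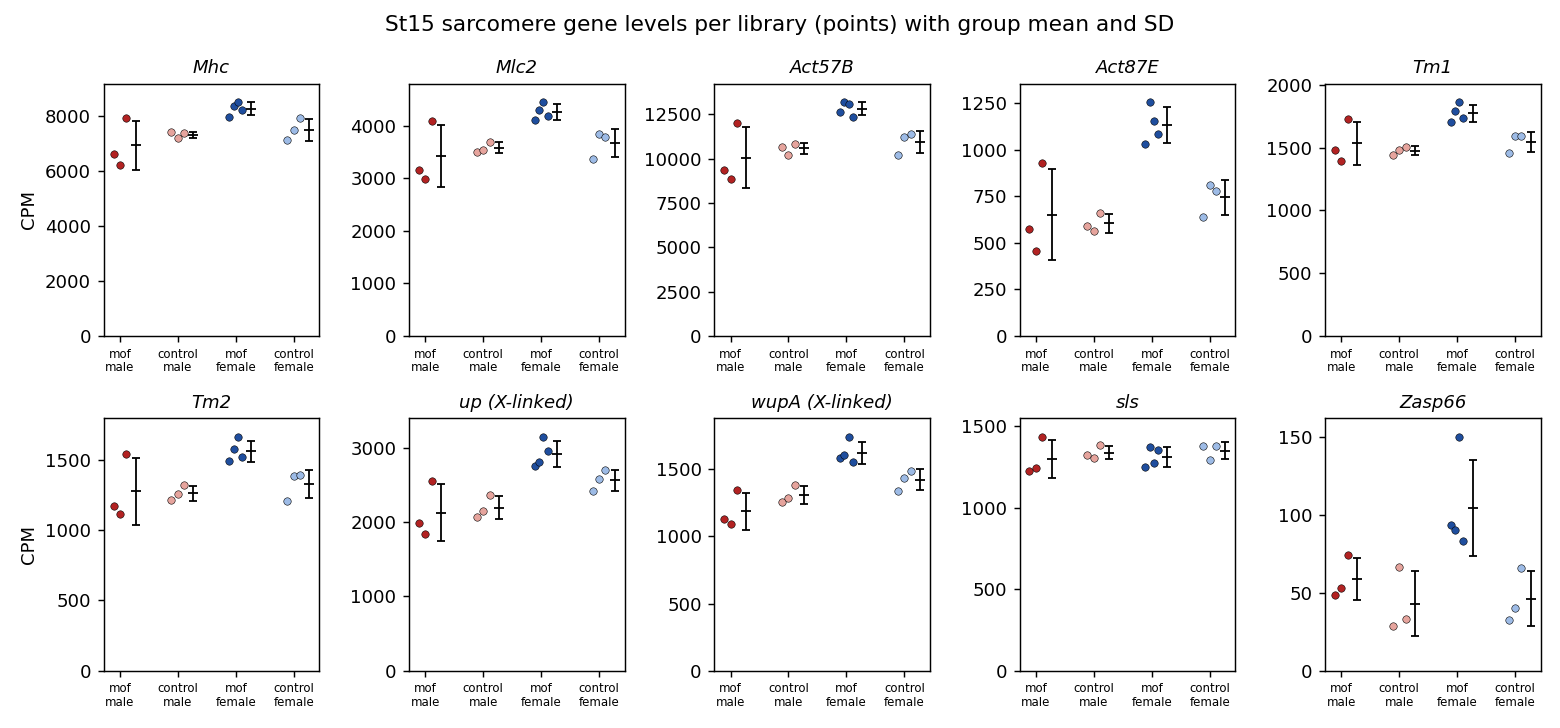
Level of each sarcomere gene in the 13 St15 libraries (points; CPM, axis from 0) with the mean and SD of each group. In 9 of the 10 panels, all but sls, the 4 mof females lie above the 3 control females, and mof male 4, the highest of the mof males, lies apart from mof males 1 and 2 (Mhc at 7961 CPM, against 6634 and 6239 CPM).

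In St15 males none of the 10 genes passed between mof and control embryos, although 34.3% of all genes tested did (3662 genes; 4633 at an unadjusted p under 0.05). The lowest adjusted p of the set was 0.241, for wupA, no member had an unadjusted p under 0.05, and DESeq2 also passed 0 of the 10. Fitted log2 fold changes ran from -0.14 for wupA to 0.46 for Zasp66, with a median of -0.038, against 0.021 for all genes. The male groups overlapped for every gene of the set, where 44.8% of all genes tested lay apart, and the mof males differed among themselves. For Mhc they stood at 6634, 6239 and 7961 CPM (mof males 1, 2 and 4), against 7420.4, 7217 and 7382 CPM in control males. For Act87E they stood at 573, 454 and 928 CPM in mof males, against 590.5, 563 and 662 CPM in control males. For Act57B they stood at 9348, 8832 and 12023 CPM in mof males, against 10674, 10236 and 10838 CPM in control males.

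The light chain and the tropomyosins had the same arrangement. Mlc2 stood at 3161, 2993 and 4090.2 CPM in mof males, against 3504, 3538 and 3694 CPM in control males (log2 fold change -0.063 ± 0.10). Tm2 stood at 1169, 1113 and 1546 CPM in mof males, against 1214, 1257 and 1321 CPM in control males (0.018 ± 0.11). Tm1 stood at 1484, 1393 and 1727 CPM in mof males, against 1441, 1482 and 1507 CPM in control males (0.059 ± 0.078), so that mof male 1 lay within the control range for this gene. At the Z-disc, sls stood at 1222, 1244 and 1432 CPM in mof males, against 1324, 1303 and 1380.4 CPM in control males (-0.036 ± 0.074). Zasp66 stood at 48.7, 53.0 and 74.1 CPM in mof males, against 28.9, 66.7 and 33.4 CPM in control males (0.46 ± 0.37), where control male 2 lay among the mof males.

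For each of these 8 genes mof male 4 lay above all control males. The 10 genes took 3.37% of the counts of mof male 4, against 2.68% and 2.53% of those of mof males 1 and 2. Without mof male 4, 4 of the 10 genes fell in mof males: wupA by a log2 fold change of -0.24, Act57B -0.23 and Mlc2 -0.22, with Mhc at -0.20 (edgeR adjusted p from 0.0135 to 0.0279). Over the fits that each left out 1 library of this comparison, 2936 to 3645 of the 10684 genes tested passed in either direction.

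Between the sexes of the mof embryos at St15, 8 of the 10 genes were lower in males than in females, and none was higher (48.5% of all genes tested passed in either direction). The largest log2 fold change past the threshold was that of Act87E at -0.86 ± 0.21 (edgeR adjusted p = 0.00604). The X-linked up and wupA followed at -0.52 ± 0.10 and -0.51 ± 0.079 (edgeR adjusted p = 0.00118 and 0.000193). Act57B, Mlc2, Tm2, Mhc and Tm1 lay between -0.41 and -0.27. Zasp66 (-0.89 ± 0.35, edgeR adjusted p = 0.0584) and sls (-0.078 ± 0.069, edgeR adjusted p = 0.368) did not pass. In CPM, 7 of the 10 genes lay lower in each mof male than in any mof female, as did 19.6% of all genes tested. For up the mof males stood at 1994, 1843 and 2560.4 CPM and the mof females at 2755 to 3149.8 CPM, and for wupA at 1127, 1089 and 1347 CPM in mof males and 1557 to 1740.2 CPM in mof females.

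Between control males and control females at St15 none of the 10 genes passed, in a comparison in which 1.3% of all genes tested did (139 genes; 1136 at an unadjusted p under 0.05). DESeq2 also passed 0 of the 10, and no member reached an unadjusted p under 0.05. The lowest adjusted p was that of up (log2 fold change -0.23 ± 0.11, edgeR adjusted p = 0.471). Its CPM was 2071, 2154 and 2372 in control males, against 2417, 2591 and 2699.7 in control females, so that up was the 1 gene of the set whose control sexes did not overlap (9.51% of all genes tested lay lower in each control male than in any control female).

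The difference in the mof effect between the sexes, tested directly, was past the threshold for wupA alone of the 10 genes at St15, where 16.7% of all genes tested passed. The mof effect on wupA was lower in males than in females by 0.39 ± 0.12 on the log2 scale (fitted difference -0.39, edgeR adjusted p = 0.0355). For the other 9 genes the fitted difference was also negative, from -0.77 for Zasp66 to -0.056 for sls, without passing. Leaving out mof male 4 brought 8 genes past the threshold, while leaving out any of 9 other libraries left 0 (control females 2 and 3, each of the 3 control males, mof females 2 and 3, and mof males 1 and 2). Over the fits that each left out 1 library, 1287 to 2655 of the 10684 genes tested passed for this difference.

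**Figure D3:**
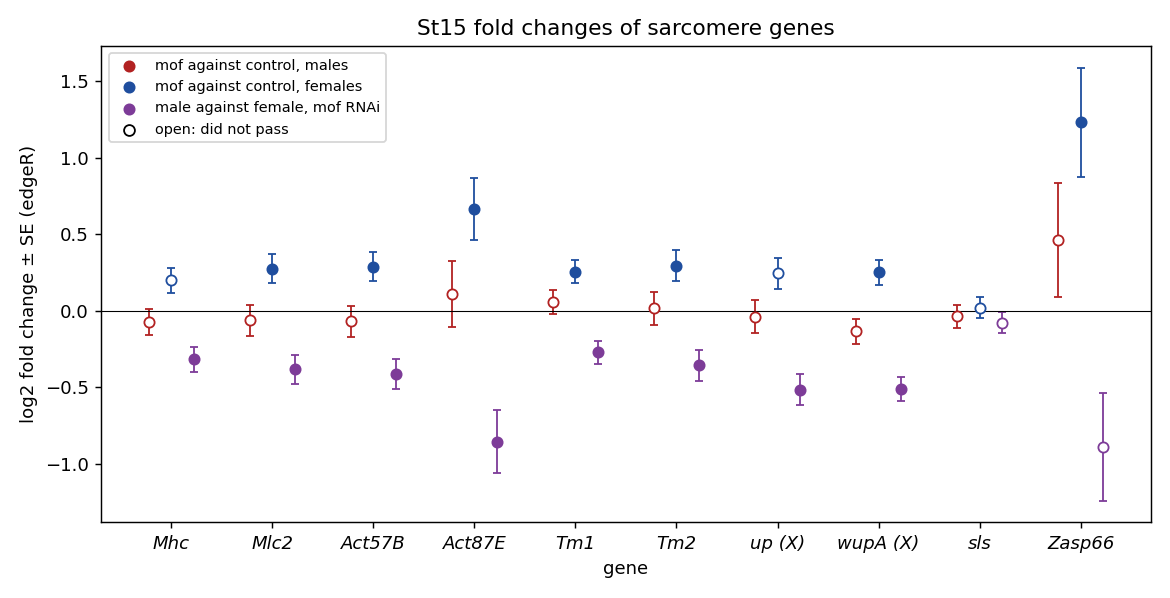
Log2 fold changes of the 10 sarcomere genes at St15 with their standard errors (edgeR's quasi-likelihood fit): mof against control in males (red), mof against control in females (blue) and male against female in mof RNAi embryos (purple). Filled points passed an adjusted p of 0.05: 0 of the red, 7 of the blue and 8 of the purple ones.

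The X-linked troponins lay above the median of their chromosome in St15 males. Over the 1717 X-linked genes tested, the median log2 fold change of mof against control males was -0.52 and 63.72% fell, while the median of autosomal genes was 0.075. In the same fit up had a log2 fold change of -0.040 ± 0.11 (95% interval -0.27 to 0.19; edgeR adjusted p = 0.814) and wupA of -0.14 ± 0.084 (95% interval -0.32 to 0.046; edgeR adjusted p = 0.241). Both genes were named with earlier results known, so their place against the X median of -0.52 is a description with no test. In CPM, up stood at 1994, 1843 and 2560.4 in mof males, against 2071, 2154 and 2372 in control males, and wupA stood at 1127, 1089 and 1347 in mof males, against 1256, 1286 and 1381 in control males. Without mof male 4 the log2 fold changes were -0.20 for up (edgeR adjusted p = 0.0584) and -0.24 for wupA (edgeR adjusted p = 0.0135).

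The summed counts of up and wupA were also set against those of the 8 autosomal genes in each library. The log2 ratio was -2.93 ± 0.0048 in mof males (SD, n = 3), -2.90 ± 0.070 in control males (n = 3), -2.78 ± 0.058 in mof females (n = 4) and -2.77 ± 0.013 in control females (n = 3). The ratio thus differed between mof and control males by -0.022, less than the spread among control males, while males less females came to -0.14 in mof and in control embryos alike. Over all X-linked against all autosomal genes, the log2 ratio was -2.92 ± 0.029 in mof males, against -2.49 ± 0.0052 in control males, and -2.40 ± 0.022 in mof females, against -2.39 ± 0.011 in control females. The summed ratio is led by the most abundant genes. With each gene given the same weight, as a mean of log2 CPM, the mof less control difference was -0.14 in males and -0.16 in females. That mean gives full weight to Zasp66, the lowest gene, with log2 fold changes of 0.46 in males and 1.23 in females. The mean without Zasp66 was not computed.

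**Figure D4:**
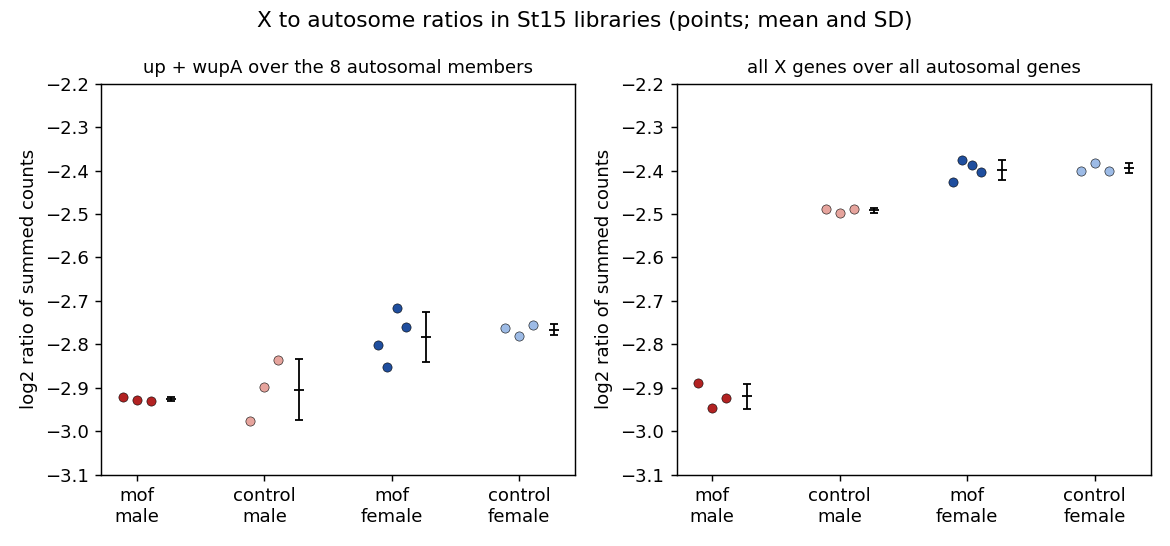
Log2 ratio of summed counts in each St15 library (points, with mean and SD): up and wupA over the 8 autosomal sarcomere genes (left), and all X-linked over all autosomal genes (right). The mof males lie apart from the other groups on the right, at -2.92 against -2.49 in control males, and among the control males' values on the left, at -2.93 against -2.90.

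Other X-linked genes of muscle, of muscle attachment and of the actomyosin cytoskeleton, taken from the lists below, gave a scale for this. Of the 11 tested in St15 males, 6 fell and 1 rose in mof embryos. The non-muscle myosin light chains Mlc-c and sqh fell by log2 fold changes of -0.87 and -0.66, the beta integrin mys and the integrin-linked adaptor parvin by -0.61 and -0.59, the potassium channel gene Sh by -0.61 and the cytoplasmic actin Act5C by -0.35. The founder-cell fusion receptor kirre rose by 0.84. The alpha-actinin gene Actn, which codes for the main crosslinker of the Z-disc, had a log2 fold change of -0.15 ± 0.078 (edgeR adjusted p = 0.165) and the alpha integrin gene if -0.072 ± 0.070 (edgeR adjusted p = 0.467), values near those of up and wupA. For rst (0.23) and sing (-0.73), both genes of myoblast fusion, the change did not pass.

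**Figure D5:**
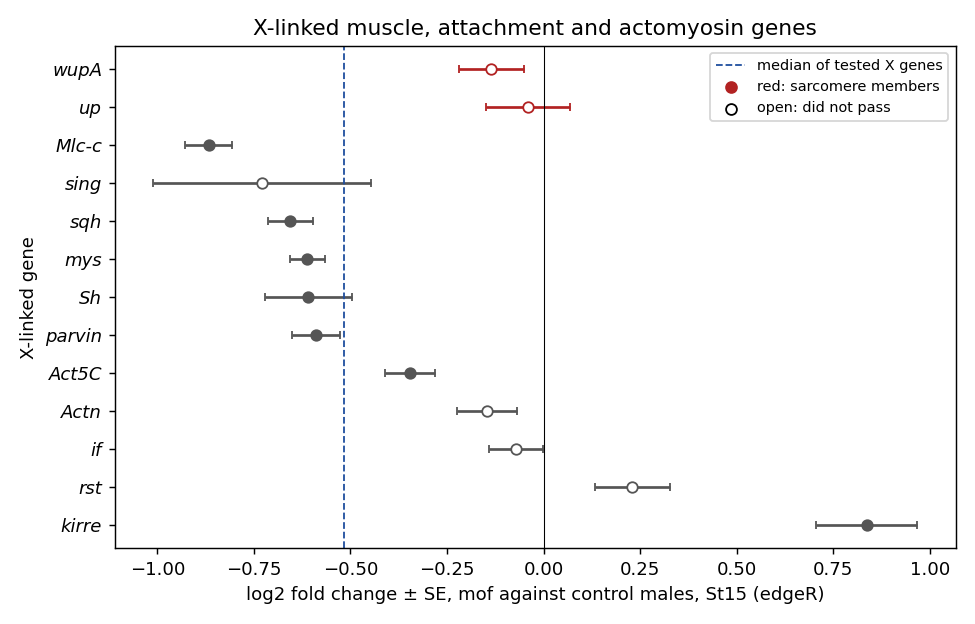
Log2 fold change of mof against control males at St15 with its standard error for the X-linked sarcomere genes (red) and 11 other X-linked genes of the muscle and actomyosin lists (grey), with the median of the 1717 tested X-linked genes at -0.52 (dashed). The troponin genes up and wupA lie near 0, beside Actn and if. Mlc-c, sqh, mys, Sh and parvin lie beyond the dashed line, as does sing, which did not pass.

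A wider list of 66 other muscle genes, covering filaments, Z-disc, calcium handling, junction receptors, attachment, fusion and specification, was read in the same fits. In St15 females 16 of the 62 tested rose in mof embryos and 1 fell, which is 27.4% called and near the 26% of all genes, with a median log2 fold change of 0.15, against 0.022 for all genes. The troponin C genes TpnC25D (1.10 ± 0.21), TpnC41C (1.03 ± 0.16) and TpnC47D (0.39 ± 0.11), which code for the calcium sensor of the thin filament, rose, as did the essential light chain Mlc1 (0.28), the thick filament protein Mf (0.52), the Z-disc gene Zasp52 (0.25), the sarcolamban gene SclB (0.96) and the sodium-calcium exchanger Calx (0.67). Flightin, fln, had the largest value (2.07 ± 0.47), at a very low level of 0.379 to 0.538 CPM in mof females, against 0.0954 to 0.158 CPM in control females. Mef2, the transcription factor that activates many sarcomere genes, rose by 0.21 in mof females (edgeR adjusted p = 0.0329), and sr, the tendon cell factor, fell by 0.19.

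In St15 males 5 of the same 62 genes rose in mof embryos and 6 fell (17.7% called, against 34.3% of all genes), with a median of 0.020. Mef2 rose by 0.36 ± 0.069 (edgeR adjusted p = 0.0011) and SclB by 1.22. The autosomal genes bap (-0.43), GluRIIB (-0.32) and Tsp (-0.17) fell, beside the X-linked Sh, mys and parvin. None of the 7 thick filament and 7 thin filament genes tested passed in males, in edgeR or in DESeq2, and 1 of each had an unadjusted p under 0.05. Between the sexes of the mof embryos 26 of the 62 genes were lower in males and 1 was higher (43.5% called, against 48.5% of all genes), and none passed between the control sexes (5 at an unadjusted p under 0.05, and 1 past DESeq2's threshold). The mof effect differed between the sexes for 7 of the 62 (11.3%, against 16.7% of all genes), each time lower in males: the X-linked parvin, Sh, mys, if and Actn, and the autosomal bap and fln. Of all X-linked genes tested, 50.09% passed in that direction.

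The 8 non-muscle actin and myosin genes were read beside these, with no test of a difference between the lists. Of the 7 tested at St15, 0 passed in females between mof and control embryos, in edgeR or in DESeq2, and 0 had an unadjusted p under 0.05, where 26% of all genes passed. In males, where 34.3% of all genes passed, 4 fell in mof embryos: the X-linked Mlc-c, sqh and Act5C and the autosomal myosin heavy chain zip (-0.27).

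Summed markers of other tissues were read in the same St15 libraries, and in females the ranges of the mof and control groups lay apart for the hemocyte and fat body markers and for the egg markers alone. The summed level of the 8 hemocyte and fat body markers was 8933 to 9909 CPM in mof females, against 7204 to 8378 CPM in control females, and 7474 to 9522 CPM in mof males, against 7160 to 7330 CPM in control males. The 8 cuticle and epidermis markers summed to 4089 to 4623 CPM in mof females, against 3597 to 4237 CPM in control females. The 8 neuron markers summed to 1219 to 1416 CPM in mof females, against 1212 to 1347 CPM in control females, and to 1074 to 1126 CPM in mof males, against 1173 to 1254 CPM in control males. The 7 egg markers summed to 156 to 166 CPM in mof females, against 175 to 191 CPM in control females. Taken singly, 2 of the 7 hemocyte and fat body markers tested rose in mof females and 0 fell. Of the 3 egg markers tested, 1 fell and 0 rose (26% of all genes tested passed). The sums are led by the most abundant markers. The 5 glia markers (787 to 821 CPM in mof females, 771 to 817 CPM in control females) and the 6 midgut markers (62.1 to 70.2 CPM in mof females, 62.5 to 66.7 CPM in control females) overlapped between the female groups too. Of these markers, Jon65Ai had no count in control females and alphaTry none in mof males, both midgut genes, and the rest had counts in every group. The part of these differences in those of the muscle genes was not tested.

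Across the 13 St15 libraries the sarcomere genes varied together within groups. After subtracting the group means of log2 CPM, the Pearson correlation over the 45 pairs of the 10 genes had a median of 0.92. The 28 pairs without sls and Zasp66 ran from 0.89 to 0.99, while the medians of the pairs were 0.66 for sls and 0.39 for Zasp66. These points share libraries and depth, and mof male 4 is one of them. For Act57B the SD was 1713 CPM in mof males, against 311 CPM in control males, 383 CPM in mof females and 623 CPM in control females. The correlations may thus rest largely on the mof males, and they were not computed without that group. The other genes whose deviations were most like the mean of the set, of 10674 ranked, were brp (0.99), Traf-like (0.99), wdp (0.99), GV1 (0.99) and Pkcdelta (0.98).

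At St7 only Act87E, Tm1, sls and Mlc2 had enough counts to be tested. In males 1 of these 4 genes passed between mof and control embryos (25.2% of all genes tested). Act87E stood at 68.0 to 137 CPM in the 6 mof males (median 107), against 59.3 to 93.0 CPM in the 7 control males (median 71.2), and rose by 0.58 ± 0.18 (log2; edgeR adjusted p = 0.0199) with overlapping ranges. With the replicate number as a block the value was 0.52 (edgeR adjusted p = 0.0649). Tm1 stood at 1041 to 1386 CPM in mof males (median 1124), against 995 to 1291 CPM in control males (median 1135). In the fit of all libraries the log2 fold change of Tm1 was 0.15 ± 0.076, which did not pass (edgeR adjusted p = 0.140). Without mof male 4 Tm1 passed as well (0.24, edgeR adjusted p = 0.0278). In females the 1 gene of 4 that passed (27.8% of all genes tested) was sls, which stood at 4.17, 1.69, 6.17 and 1.00 CPM in the 4 mof females, against 0.887 to 1.91 CPM in the 6 control females (median 1.05). Its log2 fold change was 1.44 ± 0.41 (edgeR adjusted p = 0.0115), carried by mof females 1 and 3. Without mof female 3 it was 0.93 (edgeR adjusted p = 0.116). Act87E in females had a log2 fold change of 0.44 ± 0.20 (edgeR adjusted p = 0.116), which passed without control female 5 (0.56, edgeR adjusted p = 0.0498) or without mof female 4 (0.58, edgeR adjusted p = 0.0373).

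Between the sexes at St7 none of the 4 genes passed in mof embryos (6.01% of all genes tested) or in controls (6.22%), and none had an unadjusted p under 0.05 or passed in DESeq2. A difference between the sexes in the mof effect passed for none of the 4 genes, nor for any gene tested (0% passed, with 318 of 8717 genes at an unadjusted p under 0.05 and 1 gene past DESeq2's threshold). In the wider muscle list at this stage, 9 of the 40 genes tested rose in mof males and 2 fell, and 7 rose in mof females and 2 fell. These are 27.5% called in males and 22.5% in females, near the 25.2% and 27.8% of all genes. Among them were the mesoderm factors tin (0.48 ± 0.12 in males, 0.53 ± 0.14 in females) and Mef2 (0.58 ± 0.14 and 0.46 ± 0.16), the thin filament cap tmod (0.31 ± 0.072 and 0.33 ± 0.083) and the calcium release channel RyR (0.77 ± 0.25 and 1.01 ± 0.28). The visceral mesoderm factor bap rose in females by 4.61 ± 0.68, and parvin (-0.44 and -0.60) and sing (-0.47 and -0.43) fell in both sexes.

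At St5, 6 of the 10 genes could be tested, 5 of them on a handful of counts. None passed between mof and control males (13.8% of all genes tested passed; 2856 at an unadjusted p under 0.05) or between mof and control females (4.04% passed; 1812 at an unadjusted p under 0.05). Mlc2 in males had the lowest adjusted p: it stood at 0.180, 0.125, 0.168 and 0 CPM in mof males, against 1.15, 1.06, 0.572 and 0.502 CPM in control males. The groups did not overlap, as was so in this direction for 14.7% of all genes tested, and the log2 fold change of -2.53 ± 0.91 did not pass in edgeR's test (adjusted p = 0.0819) but did in DESeq2's (adjusted p = 0.0185). Without mof males 1 and 2, which had 3 and 0 Y-linked counts, none passed in males either. In females the lowest unadjusted p was that of sls (0.0386), which had 0 counts in both mof females, against 8 and 6 counts in the control females, and DESeq2 passed 0 genes of the set. Tm1, with 21364 to 33606 counts a library, stood at 708 to 746 CPM in mof males, against 731 to 888 CPM in control males, and at 637 and 555 CPM in mof females, against 819.8 and 695 CPM in control females. Its fitted log2 fold change was 0.0505 ± 0.12 in males (edgeR adjusted p = 0.819) and -0.31 ± 0.17 in females (edgeR adjusted p = 0.351).

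The sexes differed at St5, in a comparison in which most of the transcriptome did. In controls, up, Mhc, Mlc2 and Act87E of the 6 genes tested were higher in males, where 62% of all genes tested passed. The gene up had 18, 17, 4 and 19 counts in control males and 0 in both control females, at least 9.51-fold higher against a floor of 3 counts over both female libraries, and Mhc (32 counts over the 4 males, 0 over the females) was at least 5.25-fold higher. Mlc2 stood at 0.502 to 1.15 CPM in control males, against 0 and 0.111 CPM in control females, and Act87E at 0.423 to 0.849 CPM in control males, against 0 and 0.0553 CPM in control females. In mof embryos up, sls and Tm1 were higher in males (52.7% of all genes tested passed): up at 5 to 33 counts in males, against 0 and 5 in females, and Tm1 by 0.64 ± 0.15 (log2; edgeR adjusted p = 0.00435). For sls, with 33 counts over the mof males and 0 over the mof females, the level was at least 6.53-fold higher in males. A difference between the sexes in the mof effect passed for none of the 6 genes (0.121% of all genes tested passed; sls had an unadjusted p of 0.0373 and no other gene of the set one under 0.05, and DESeq2 passed 0).

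At St5 the egg markers moved with sex: their sum was 189 to 270 CPM in control males, against 1141 to 1273 CPM in control females, and 221 to 297 CPM in mof males, against 1026 to 1201 CPM in mof females. The part of this shift in the sex differences was not tested. Only Tm1 passed in mof embryos without mof male 1, 3 or 4, or without mof female 1, while 4 genes passed without the pair of mof males with 3 and 0 Y-linked counts, Act87E (2.61) being added. In controls, only up passed without control female 1 (the library with 40 Y-linked counts), and Act87E and Mlc2 passed without control female 2.

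Between the S2 libraries labelled mof and GFP dsRNA, 6 of the 10 genes were tested and 1 passed, against 23.4% of all genes tested. Tm1 stood at 317, 318 and 336.5 CPM with mof dsRNA, against 345, 367 and 364.5 CPM with GFP dsRNA, and fell by 0.15 ± 0.045 on the log2 scale (edgeR adjusted p = 0.0359). The groups did not overlap, but leaving out GFP library 2 or 3, or any of the mof libraries, moved its adjusted p to between 0.0516 and 0.150. Mlc2 was also lower in every mof library than in any GFP library, an arrangement shown by 2 of the 6 genes (Tm1 and Mlc2) and by 21.1% of all genes tested, at 1.75, 1.96 and 2.09 CPM, against 2.22, 3.32 and 2.82 CPM with GFP dsRNA, with a log2 fold change of -0.51 ± 0.18 (edgeR adjusted p = 0.0574) that passed without GFP library 1 (-0.66, edgeR adjusted p = 0.0285). The gene sls was at 27.8, 27.9 and 30.0 CPM with mof dsRNA, against 31.6, 27.6 and 31.7 CPM with GFP dsRNA, and did not pass. Of the wider muscle list, 8 of 38 genes tested fell and none rose (21.1% called, near the 23.4% of all genes), among them mys (-0.47), nau (-0.36), Actn (-0.33) and Vrp1 (-0.30).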

How the data were processed

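Polyadenylated RNA was sequenced from 54 libraries in 14 groups, made with a stranded kit per the labels' protocols. The deposited tables hold raw read counts per gene, not normalized; the submitters' processing notes name the build dm6, and how reads were aligned and counted, strand included, is not given in the sources used here. Of the 17558 rows, 17252 gene IDs were in the reference names and 123 more were matched by the St5 symbol of the same row.

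From the counts, CPM by total counts were computed, and each table was fitted alone in edgeR 4.0.16 (R 4.3.3; filterByExpr, TMM, robust quasi-likelihood fit with a mean per group). P-values were adjusted by Benjamini-Hochberg over all genes tested, with a threshold of 0.05. Standard errors are the log2 fold change over the root of F. Comparisons in a table share groups: mof and control females, for example, enter both their own contrast and those between the sexes.

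The fits were tested on simulated data. The members and lists were chosen with earlier results of these data known. Named genes were the 10 members, mof, up to 4 passing genes per list and comparison by size of change, and the 5 most like the members within groups at St15. The X-linked list genes that did not pass (Actn, if, rst and sing) were named after their values were seen. Same-numbered libraries did not deviate together, so no pairing was used. Alternatives were DESeq2 1.42.0, other scalings and filters, a replicate block, a fit that is not robust, single groups and libraries left out.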

Additional observations from a re-analysis of the deposited data

Results flagged for a closer look

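Among 38 sets of values of 1 gene in 1 group of 4 to 7 libraries, 4 had a library far from the others, and chance flags about 1 in 20 such sets. Mhc at St5 stood at 0.169 CPM in mof male 4, where the other mof males had 0 to 0.028 CPM. Tm1 at St7 stood at 1271 CPM in mof female 4, where the others had 1139 to 1161 CPM. The sls level at St7 was 3.51 CPM in control male 4, where the others had 1.32 to 2.11 CPM. Zasp66 at St15 stood at 149.8 CPM in mof female 3, where the others had 83.2 to 93.3 CPM, and this library also held the 40 Y-linked counts. Between the sexes, the mof effect on wupA at St15 differed by a log2 value of -0.39 (male less female; edgeR adjusted p = 0.0355), and over the fits that leave out 1 library this value ran from -0.49 to -0.31, with adjusted p from 0.00171 to 0.107.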

How the results depend on the processing

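Counts of sarcomere genes past the threshold moved with the settings as follows, and no gene of the set that passed changed its sign under any setting run. In St15 females the count was 7, with 2 under no filter on low counts and 3 under a mean of at least 10 CPM, and 0 to 4 with 1 library left out. In St15 males it was 0, and 0 to 4 with 1 library left out. For the difference between the sexes in the mof effect at St15 it was 1, with 2 in DESeq2 and 0 to 8 with 1 library left out. For male against female in St15 mof embryos it was 8, and 7 to 9 under all settings. At St5 it was 0 for mof males, with 1 in DESeq2. For St5 control males against females it was 4, with 1 at a mean of at least 10 CPM, where 1 gene was left to test, 2 with the replicate number as a block and 1 to 4 with 1 library left out. For St5 mof males against females it was 3, with 1 at that filter, 1 with the block, 1 in a fit of the groups compared alone and 1 to 3 with 1 library left out. At St7 it was 1 for mof males, with 0 under the block and 1 to 2 with 1 library left out, and 1 for mof females, with 0 at a mean of at least 10 CPM and 0 to 2 with 1 library left out. In S2 cells it was 1, with 2 under TMM scaling on autosomal genes, 2 under no filter, 0 in a fit that is not robust and 0 to 2 with 1 library left out. Beyond the stricter filter, which leaves fewer genes to test, the cause of these shifts was not tested.

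Same-numbered libraries of different groups correlated at a median of -0.13 at St15 (-0.487 to 0.202), so the numbers were not taken as pairs, and the block moved no other count of the set by over 1.5 times. The X-linked over autosomal difference, taken as a mean of log2 CPM, was -0.139 for mof less control males, -0.158 for mof less control females and -0.0668 for mof males less mof females. Over all genes, with the other settings, the count of calls ran from 584 to 2080 for St5 mof males (1260 in the fit reported; the fit without mof males 1 and 2 is included), 190 to 1993 for St5 mof females (368), 3610 to 6095 for the St5 control sexes (5642), 0 to 345 for the St5 difference between sexes (11), 1459 to 2539 for St7 mof males (2196), 1801 to 3179 for St15 mof females (2777) and 23 to 289 for the St15 control sexes (139). With 1 library left out it ran from 518 to 2456, 44 to 225, 3987 to 5924, 0 to 139, 1801 to 2547, 1390 to 2559 and 46 to 88 in the same order, and from 2879 to 4832 for the St5 mof sexes (4799) and 1320 to 2174 in S2 cells (2261). With autosomal scaling, 1241 genes rose and 2276 fell in St15 mof males, where 1714 rose and 1948 fell in the fit reported, and 718 rose and 1490 fell in S2 cells, where 986 rose and 1275 fell. Relative-log scaling gave a median log2 fold change of all genes of 0.45 between the St5 control sexes, where the fit reported has 0.32, and of 0.28 between the St5 mof sexes, where it has 0.17. The X-linked ratio at St5 without mof males 1 and 2 was not run, since up and wupA had too few counts there. Low counts limit the St5 values of all members but Tm1 and the St7 values of all but Tm1 and Act87E.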
